A study of Rattus norvegicus with 9 samples.

Results

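The 48 genes described here act in the G2 phase of the cell cycle and in mitosis. They were taken from a named list and were found on the array through the RefSeq accession of each probe, which matched 37 of them to 47 of the 41012 probes. Of these 37 genes, 28 were tested because a probe of theirs stood well above background on every array of 1 group or more, beside 9599 of the 13438 genes with a named probe in the whole series. The other 9 genes with a probe did not pass that filter. The remaining 11 genes, Bub1b, Top2a, Mki67, Nusap1, Cdca3, Cdc25c, Cdkn3, Ncaph, Anln, Melk and Ndc80, matched no probe by accession.

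Each of 9 male Wistar rats gave liver RNA for 1 one-colour Agilent whole-genome array, to see how total body irradiation (TBI) and a herbal medicine change gene expression. The 3 control rats were not irradiated. The 3 TBI rats received 6.5 Gy of cobalt gamma rays at 2 Gy/min, and the 3 HSC + TBI rats were given Hong Shan Capsule (HSC), a Chinese medicine made of several herbs, by stomach tube for 3 days before the same exposure. Livers of irradiated rats were taken 24 h after exposure. The dose of HSC is 30 mg/kg/day in the sample labels and 10 g/kg/day in the series text. Each group held more rats than were put on arrays, and how the 3 were chosen is not given in the sources used here. No HSC group without irradiation is among the samples.

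Cells enter mitosis when the kinase Cdk1, bound to cyclin A or cyclin B, is switched on, and leave it when the anaphase-promoting complex marks cyclin B and securin for destruction. Most of the genes that carry out these steps are transcribed only in G2 and M phase. DNA damage stops cells in G1 or G2, and p53 lowers many of these genes through its target p21 (Cdkn1a) and the DREAM repressor complex, which binds a promoter element called CHR. Few hepatocytes of an adult liver divide, and other dividing cells of the tissue also carry these transcripts. In RNA from whole liver, fewer dividing cells and less of a transcript per cell cannot be told apart.

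The promoters of 6 of these genes are shown as examples with matches to both the CHR element and the CCAAT box, to the CCAAT box alone, or to neither. The CCAAT box is a second element common in promoters of G2 and M genes. They were chosen after the values had been seen. Each is the stretch of 250 bases before the annotated gene start, from RefSeq on assembly GRCr8, read 5′ to 3′ on the strand of the gene. Capitals mark the CHR letters TTTGAA on either strand. They also mark the CCAAT box on either strand, which reads ATTGG where it lies on the other one.
Cdk1 (chr20:19265043-19265292, plus strand): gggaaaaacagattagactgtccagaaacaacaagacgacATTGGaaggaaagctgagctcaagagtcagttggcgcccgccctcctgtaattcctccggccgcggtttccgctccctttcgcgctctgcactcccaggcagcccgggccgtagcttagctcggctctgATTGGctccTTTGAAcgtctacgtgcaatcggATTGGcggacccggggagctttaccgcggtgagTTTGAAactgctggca
Ccnb2 (chr8:79981659-79981908, minus strand): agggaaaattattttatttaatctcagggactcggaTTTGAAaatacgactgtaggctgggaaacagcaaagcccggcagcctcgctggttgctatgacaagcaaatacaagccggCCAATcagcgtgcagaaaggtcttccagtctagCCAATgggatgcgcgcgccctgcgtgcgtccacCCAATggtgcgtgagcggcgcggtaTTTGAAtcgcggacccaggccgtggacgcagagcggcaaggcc
Espl1 (chr7:135302466-135302715, plus strand): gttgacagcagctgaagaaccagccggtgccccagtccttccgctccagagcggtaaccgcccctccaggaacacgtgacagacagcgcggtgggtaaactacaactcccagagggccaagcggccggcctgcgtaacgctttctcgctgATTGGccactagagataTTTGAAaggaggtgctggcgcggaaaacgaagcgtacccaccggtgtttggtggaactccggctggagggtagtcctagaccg
Kif22 (chr1:191080879-191081128, minus strand): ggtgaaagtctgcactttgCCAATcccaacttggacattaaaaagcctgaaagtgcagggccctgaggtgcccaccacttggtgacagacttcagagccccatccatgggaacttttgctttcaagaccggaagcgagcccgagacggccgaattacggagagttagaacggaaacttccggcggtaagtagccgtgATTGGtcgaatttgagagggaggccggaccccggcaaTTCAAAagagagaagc
Ccnb1 (chr2:33655226-33655475, minus strand): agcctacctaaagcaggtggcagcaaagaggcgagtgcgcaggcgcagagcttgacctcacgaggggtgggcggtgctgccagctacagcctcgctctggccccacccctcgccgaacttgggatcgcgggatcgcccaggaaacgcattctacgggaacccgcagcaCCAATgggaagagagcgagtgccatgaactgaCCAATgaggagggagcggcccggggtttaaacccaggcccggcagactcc
Aurka (chr3:181560770-181561019, minus strand): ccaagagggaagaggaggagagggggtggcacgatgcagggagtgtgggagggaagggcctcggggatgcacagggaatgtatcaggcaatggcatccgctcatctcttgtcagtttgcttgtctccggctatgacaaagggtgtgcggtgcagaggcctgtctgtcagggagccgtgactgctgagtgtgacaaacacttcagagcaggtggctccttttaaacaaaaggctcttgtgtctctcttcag

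The Cdk1 stretch held 2 CHR and 3 CCAAT matches, Ccnb2 held 2 and 3, Espl1 1 and 1, and Kif22 1 and 2. Ccnb1 held no TTTGAA match and 2 CCAAT matches, and Aurka held no match to either. Only the letters TTTGAA were searched, so other forms of the CHR element were not counted. Over windows of 300 bases, from 250 before the start to 50 after it, 41 of the 48 genes had an entry. TTTGAA stood in 29 of these 41 windows (70.7%) beside 18.3% of all 33469 windows, CCAAT in 30 (73.2%) beside 37.5%, and both in 24 (58.5%) beside 7.4%. Matches of the 2 elements shared bases in 2 of the 41. Among genes called lower in at least 1 irradiated group, 13 of 17 windows held TTTGAA and 14 held CCAAT. Among tested genes called in neither group, 4 of 6 held each of them. The called gene Bub1 held neither element, as did the uncalled Aurka and Kif18a, while the uncalled Ccnf, Cdc20, Smc2 and Smc4 held both. A match describes letters and does not show that a factor binds there.

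Values that follow are log2 signals of a probe after quantile normalization of the 9 arrays. A gene was called when limma gave a Benjamini-Hochberg adjusted p under 0.05 over all 25346 tested probes and a fold change of at least 1.5. Log2 fold changes are given ± the standard error of the fit. After TBI, 19 of the 28 tested genes were called lower than in controls and 0 higher, where 3.92% of all tested named genes were called lower and 3.88% higher. After HSC + TBI, 18 were called lower and 0 higher, where 2.7% of named genes were called lower and 1.18% higher. By limma, 23 of the 28 had an unadjusted p under 0.05 in each comparison, none of them higher than in controls. Of the 9599 tested named genes, 2504 after TBI and 2101 after HSC + TBI had such a p, in either direction. The median log2 fold change over the 28 was -1.69 in both comparisons, beside 0.01 and 0.02 over all tested named genes. With genes that were above background on no array of 1 group set at their bound, it was -1.69 after TBI, with 2 such genes, and -1.38 after HSC + TBI, with 7. The size of the changes depended on the background treatment: under normexp, a correction that adds an offset of 50 to the signals, the medians were -0.51 and -0.53 and 13 genes were called lower in each comparison. Cenpa, Kif23, Nuf2 and Spc25 lost both calls under it, Mad2l1 and Tpx2 that after TBI and Cdc25b that after HSC + TBI. The bounds given below as at least a fold hold only for the background treatment used here. Under normexp Nuf2 changed by -0.51 after TBI, and Spc25 and Cdc25b by -0.30 and -0.29 after HSC + TBI. The filter favours genes that are high in 1 group: 8 of the 28 passed through the controls alone, as did 0.781% of all tested named genes. These counts thus describe the genes and give no test of the list. The 8 were Ccna2, Ccnb2, Cdc25b, Espl1, Kif22, Nuf2, Spc25 and Ttk. The filter favours a high control value in them, so their calls and adjusted p-values against controls, given below, are no test of a fall.

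Among the 15 genes above background on all 9 arrays, 10 were called lower after TBI and 8 after HSC + TBI, where 3.66% and 2.38% of named genes measured on all 9 arrays were called lower. With no filter on dim probes, 20 and 19 of the 37 genes with a probe were called lower and 0 higher, where 2.52% and 1.37% of named genes were called lower and 2.36% and 0.544% higher. The 2 irradiated groups share the same controls, and 17 genes were called lower in both. Mad2l1 and Tpx2 were called after TBI only and Cdc25b after HSC + TBI only, and the direct comparison of the irradiated groups called 0 of the 28. The irradiated rats lay below the controls without overlap for 22 genes after TBI and 25 after HSC + TBI, where 15.7% and 16.9% of named genes did so, and above them for 0, where 14.3% and 17.6% did.

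**Figure D1:**
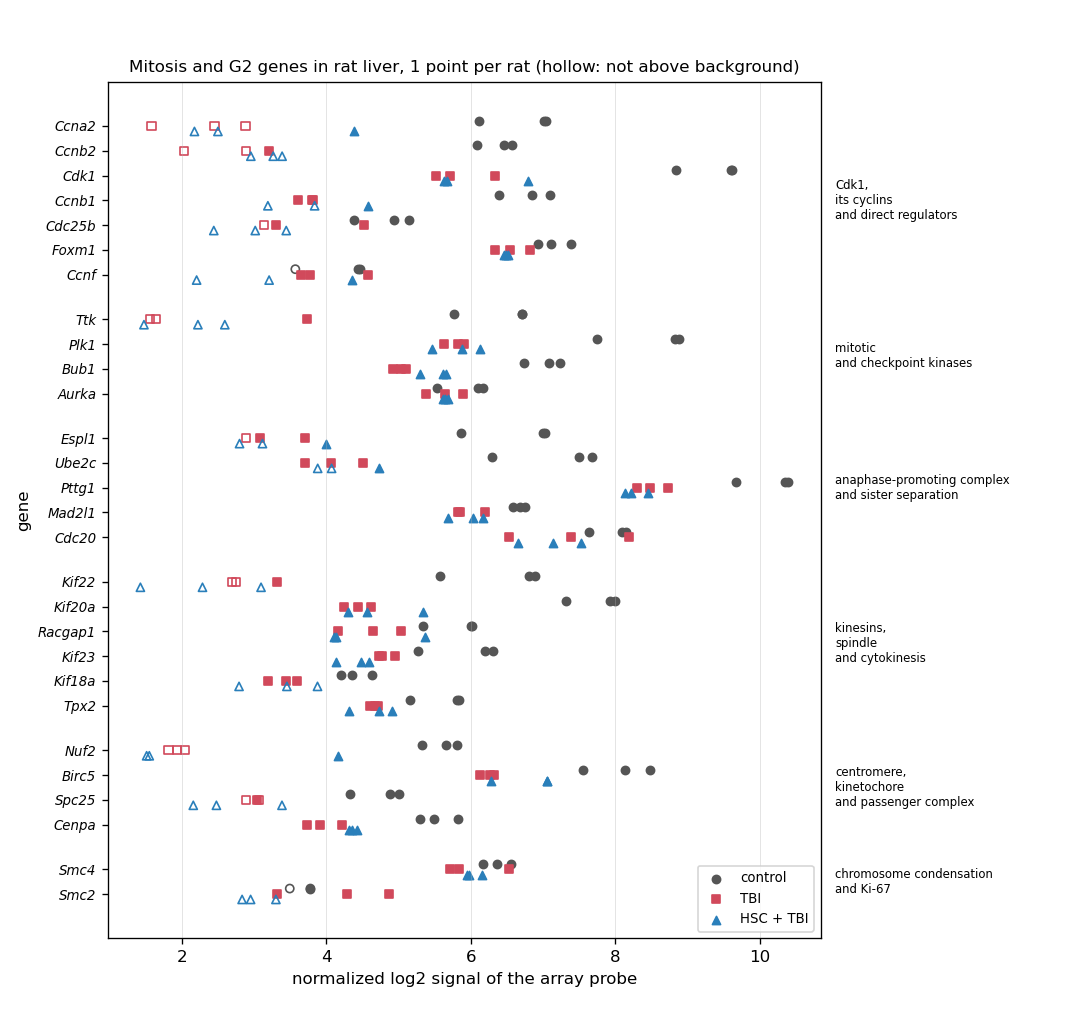
Normalized log2 signal (horizontal axis) of the 28 tested mitosis and G2 genes, 1 point per rat, with genes grouped by role and hollow points for arrays on which the probe was not well above background. For the 17 genes called lower in both irradiated groups, such as Cdk1 and Plk1, all 6 irradiated rats lie to the left of the 3 controls.

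Cdk1, its cyclins and their direct regulators had a median log2 fold change of -3.03 after TBI and, with undetected genes at their bound, -2.75 after HSC + TBI. Of 7 tested genes, 4 were called lower after TBI and 5 after HSC + TBI. Cdk1 (gene ID 54237), the kinase that drives entry into mitosis, had log2 signals of 8.84, 9.59 and 9.61 in the control rats, 5.71, 5.51 and 6.33 in the TBI rats and 5.66, 5.62 and 6.79 in the HSC + TBI rats. The irradiated rats lay well below every control, with no overlap. Its level fell 11.3-fold after TBI (log2 fold change -3.50 ± 0.37, adjusted p = 0.00180) and 10.0-fold after HSC + TBI (-3.33 ± 0.37, adjusted p = 0.00272), and it was above background on all 9 arrays.

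The partner cyclins fell with it. Ccna2 (gene ID 114494), cyclin A2, read 6.11, 7.01 and 7.04 in the control rats, 1.58, 2.88 and 2.45 in the TBI rats and 2.17, 4.39 and 2.50 in the HSC + TBI rats. It was above background on all control arrays, on no TBI array and, in the HSC + TBI group, on rat 2 alone, which was the highest of the irradiated rats and still below the lowest control. Against the TBI group Ccna2 was at least 14.7-fold higher in controls (measured means 6.72 and 2.30, adjusted p = 0.00445 by limma), and after HSC + TBI its fitted log2 fold change was -3.70 ± 0.59, adjusted p = 0.0136. That second call was lost without control 2, control 3, HSC + TBI 1 or HSC + TBI 3, with an adjusted p of up to 0.0656.

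Ccnb1 (gene ID 25203), cyclin B1, read 6.38, 7.09 and 6.84 in the control rats, 3.82, 3.80 and 3.60 in the TBI rats and 3.84, 3.19 and 4.57 in the HSC + TBI rats. No irradiated rat overlapped the controls, and it was above background on all TBI arrays but on only 1 HSC + TBI array. Against controls the change was -3.03 ± 0.32, adjusted p = 0.00196 after TBI and -2.91 ± 0.32, adjusted p = 0.00279 after HSC + TBI. Ccnb2 (gene ID 363088), cyclin B2, read 6.08, 6.46 and 6.57 in the control rats, 2.88, 2.03 and 3.21 in the TBI rats and 3.26, 2.95 and 3.39 in the HSC + TBI rats. Again every irradiated rat lay below every control. In TBI rats it changed by -3.66 ± 0.29, adjusted p = 0.000415, with 1 TBI array above background. No HSC + TBI array was above background, and against that group it was at least 6.72-fold higher in controls (means 6.37 and 3.20, adjusted p = 0.00109).

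Cdc25b (gene ID 171103), a phosphatase that activates Cdk1, read 5.14, 4.93 and 4.38 in the control rats, 3.14, 3.31 and 4.52 in the TBI rats and 3.44, 2.44 and 3.02 in the HSC + TBI rats. The TBI rats overlapped the controls through rat 3, while the HSC + TBI rats did not and were all near background. After TBI the log2 fold change was -1.16 ± 0.40, adjusted p = 0.114, not called, while without TBI 3 it was called at -1.59 (adjusted p = 0.0232). After HSC + TBI it was called (adjusted p = 0.0449), at least 2.29-fold higher in controls (means 4.82 and 2.97), a call that was lost on leaving out any 1 of the controls, of the HSC + TBI rats, or TBI 2, with an adjusted p of up to 0.144. Foxm1 (gene ID 58921), a transcription factor that switches on many G2 genes, was not called: its log2 fold changes were -0.57 ± 0.16, adjusted p = 0.0663 and -0.66 ± 0.16, adjusted p = 0.0677, although all irradiated rats, from 6.33 to 6.82, lay below the controls, from 6.93 to 7.38. Ccnf (cyclin F), which targets proteins for breakdown in G2, read 3.57, 4.43 and 4.46 in the control rats, 3.65, 3.78 and 4.58 in the TBI rats and 4.35, 2.20 and 3.21 in the HSC + TBI rats, and its groups overlapped. Its log2 fold changes of -0.15 and -0.90 were not called (adjusted p = 0.880 and 0.381).

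Among the mitotic and checkpoint kinases, 3 of 4 tested genes were called lower after TBI and after HSC + TBI. Plk1 (gene ID 25515), a kinase needed from mitotic entry to cytokinesis, read 7.75, 8.83 and 8.88 in the control rats, 5.63, 5.91 and 5.82 in the TBI rats and 5.46, 5.87 and 6.12 in the HSC + TBI rats. All 6 irradiated rats were more than 1.5 log2 units below the lowest control. On the log2 scale it changed by -2.70 ± 0.30, adjusted p = 0.00223 after TBI and -2.67 ± 0.30, adjusted p = 0.00302 after HSC + TBI. A second probe of Plk1 was called as well, with log2 fold changes of -2.42 and -2.32. Ttk (gene ID 315852), the kinase that starts the spindle checkpoint, read 5.77, 6.71 and 6.71 in the control rats, 1.56, 1.64 and 3.73 in the TBI rats and 2.22, 1.47 and 2.59 in the HSC + TBI rats. Only TBI 3 was above background among the irradiated rats, and it too lay far below the controls. In TBI rats it changed by -4.08 ± 0.58, adjusted p = 0.00585, and against the HSC + TBI group it was at least 6.84-fold higher in controls (means 6.40 and 2.10, adjusted p = 0.00687).

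Bub1 (gene ID 296137), which holds the spindle checkpoint at kinetochores, read 6.74, 7.24 and 7.09 in the control rats, 5.03, 4.92 and 5.10 in the TBI rats and 5.62, 5.29 and 5.65 in the HSC + TBI rats. The TBI rats were the lowest, the HSC + TBI rats lay between them and the controls, and no 2 groups overlapped. The fitted change was -2.00 ± 0.16, adjusted p = 0.000464 after TBI and -1.50 ± 0.16, adjusted p = 0.00241 after HSC + TBI. Aurka (gene ID 261730), a kinase of the spindle poles, stood apart from these: it read 5.53, 6.17 and 6.09 in the control rats, 5.38, 5.89 and 5.64 in the TBI rats and 5.68, 5.62 and 5.65 in the HSC + TBI rats. Its groups overlapped, and the log2 fold changes of -0.29 (95% confidence interval -0.74 to 0.15) and -0.28 (-0.73 to 0.16) were not called. Aurkb, Nek2 and Pbk had a probe but did not pass the filter.

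**Figure D2:**
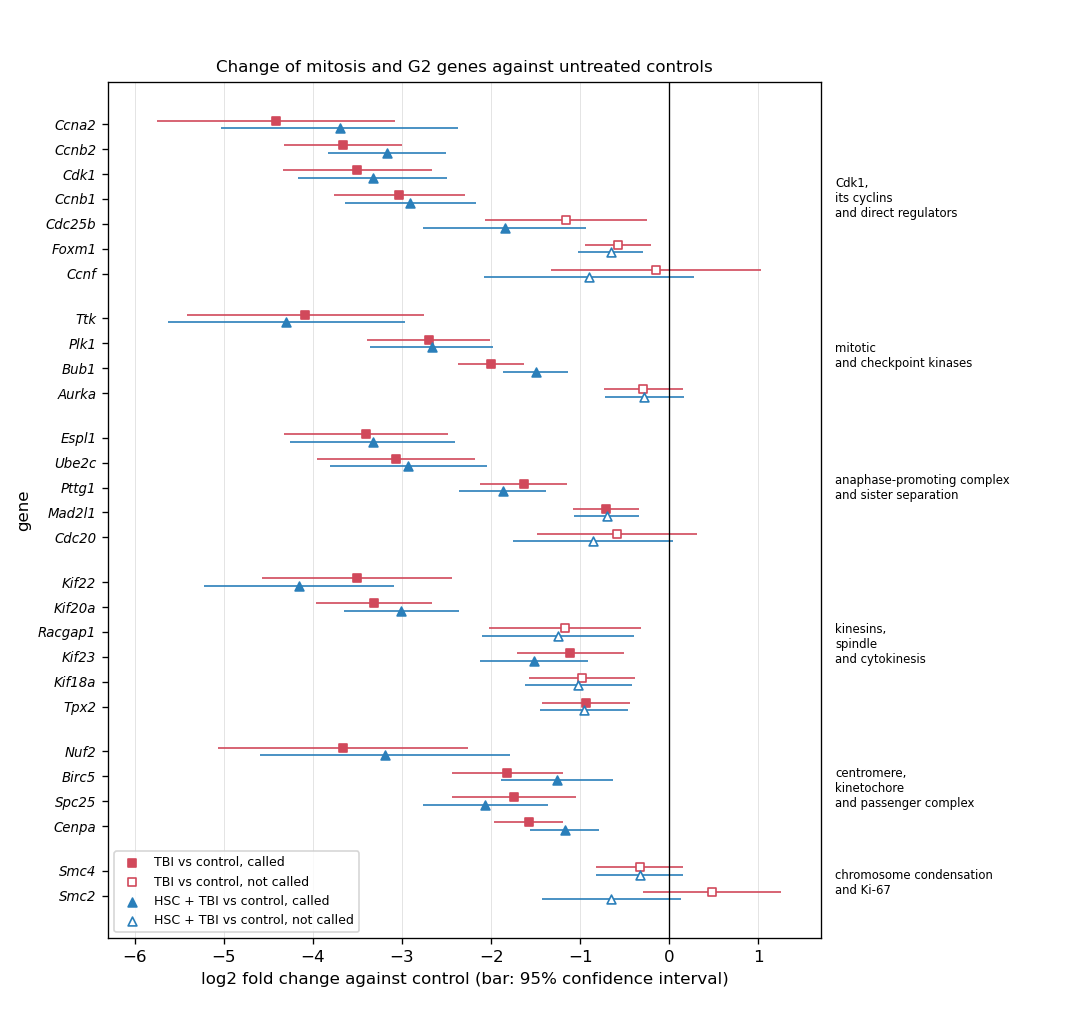
Log2 fold change against controls (horizontal axis) of the 28 tested genes by role, with 95% confidence intervals as bars, squares for TBI and triangles for HSC + TBI, filled where called. All values but that of Smc2 after TBI lie below 0. For 2 genes after TBI and 7 after HSC + TBI, which were above background on no array of that group, the position is a fitted value and only a bound was measured.

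Of 5 tested genes of the anaphase-promoting complex and sister separation, 4 were called lower after TBI and 3 after HSC + TBI. Espl1 (gene ID 315330), separase, the protease that cuts the rings holding sister chromatids, read 5.87, 6.99 and 7.03 in the control rats, 2.89, 3.09 and 3.70 in the TBI rats and 3.11, 2.80 and 3.995 in the HSC + TBI rats. Its irradiated rats were 1.8 log2 units or more below the lowest control. On the log2 scale the change was -3.40 ± 0.41, adjusted p = 0.00293 after TBI, with 2 TBI arrays above background, and -3.33 ± 0.41, adjusted p = 0.00422 after HSC + TBI, with 1. Pttg1 (gene ID 64193), securin, which restrains separase, was above background on all arrays and read 9.67, 10.40 and 10.34 in the control rats, 8.30, 8.73 and 8.48 in the TBI rats and 8.13, 8.21 and 8.46 in the HSC + TBI rats. There was no overlap with the controls. Against controls the change was -1.63 ± 0.21, adjusted p = 0.00433 after TBI and -1.87 ± 0.21, adjusted p = 0.00314 after HSC + TBI.

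Ube2c (gene ID 296368), the ubiquitin-conjugating enzyme of the complex, read 6.30, 7.67 and 7.49 in the control rats, 4.07, 3.71 and 4.502 in the TBI rats and 4.07, 3.88 and 4.73 in the HSC + TBI rats. Control 1 was the lowest control and the irradiated rats lay below it. Its log2 fold change was -3.06 ± 0.39, adjusted p = 0.00377 after TBI, and -2.93 ± 0.39, adjusted p = 0.00639 after HSC + TBI, where 1 array was above background. Mad2l1 (gene ID 297176), a spindle checkpoint protein, read 6.68, 6.74 and 6.58 in the control rats, 5.84, 5.82 and 6.20 in the TBI rats and 6.03, 5.68 and 6.17 in the HSC + TBI rats. It fell by 0.71 (log2) in both comparisons without overlap, and this passed the threshold after TBI (adjusted p = 0.0333) and not after HSC + TBI (adjusted p = 0.0553, and 0.0389 without TBI 3). The call after TBI was lost on leaving out any 1 of the controls, TBI 1, TBI 2 or HSC + TBI 1, with an adjusted p of up to 0.0959. Cdc20 (gene ID 64515), which activates the complex, read 7.64, 8.14 and 8.09 in the control rats, 8.19, 6.53 and 7.39 in the TBI rats and 6.66, 7.52 and 7.14 in the HSC + TBI rats. TBI 1 lay above every control, and neither log2 fold change, -0.59 (adjusted p = 0.389) or -0.86 (adjusted p = 0.277), was called.

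Of 6 tested genes of kinesins, spindle and cytokinesis, 4 were called lower after TBI and 3 after HSC + TBI. Kif20a (gene ID 361308), a kinesin of the central spindle, was above background on all 9 arrays and read 7.31, 7.92 and 7.999 in the control rats, 4.44, 4.25 and 4.61 in the TBI rats and 4.57, 4.30 and 5.34 in the HSC + TBI rats. The controls stood about 2 log2 units above the highest irradiated rat. On the log2 scale it changed by -3.31 ± 0.28, adjusted p = 0.000685 after TBI and -3.01 ± 0.28, adjusted p = 0.00135 after HSC + TBI. Kif22 (gene ID 293502), a kinesin that moves chromosome arms, read 5.57, 6.89 and 6.81 in the control rats, 2.70, 2.75 and 3.31 in the TBI rats and 1.43, 2.28 and 3.095 in the HSC + TBI rats. No irradiated rat reached the lowest control, and of them only TBI 3 was above background. In TBI rats it changed by -3.51 ± 0.47, adjusted p = 0.00461, and against the HSC + TBI group it was at least 6.97-fold higher in controls (means 6.42 and 2.27, adjusted p = 0.00301).

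Kif23 (gene ID 315740), a motor of the cytokinetic midbody, read 5.27, 6.20 and 6.31 in the control rats, 4.78, 4.72 and 4.95 in the TBI rats and 4.13, 4.60 and 4.48 in the HSC + TBI rats. The HSC + TBI rats were the lowest and control 1 lay nearest to the irradiated rats. The fitted change was -1.11 ± 0.27, adjusted p = 0.0392 after TBI, a call lost when any rat but control 1 was left out (adjusted p up to 0.124), and -1.52 ± 0.27, adjusted p = 0.0203 after HSC + TBI, lost without control 2, control 3 or any 1 of the HSC + TBI rats (up to 0.0888). Tpx2 (gene ID 311546), which activates Aurora A on spindle microtubules, read 5.16, 5.81 and 5.84 in the control rats, 4.67, 4.72 and 4.61 in the TBI rats and 4.72, 4.31 and 4.90 in the HSC + TBI rats. Its irradiated groups overlapped each other and lay below the controls. The log2 fold change of -0.93 after TBI was called (adjusted p = 0.0347), and that of -0.96 after HSC + TBI was not (adjusted p = 0.0516). The first was lost without control 2, control 3, any 1 of the TBI rats or HSC + TBI 1, with an adjusted p of up to 0.117, and the second was called without control 1, at -1.18 (adjusted p = 0.0163).

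Racgap1 (gene ID 315298), part of the centralspindlin complex that directs cytokinesis, gave probes that differed. Its brightest probe read 5.33, 6.002 and 6.01 in the control rats, 4.64, 5.03 and 4.16 in the TBI rats and 4.11, 4.13 and 5.36 in the HSC + TBI rats, and HSC + TBI 3 overlapped the controls. That probe was not called, with log2 fold changes of -1.17 (adjusted p = 0.0940) and -1.25 (adjusted p = 0.116). Without HSC + TBI 3 it was called in both comparisons, at -1.17 and -1.66 (adjusted p = 0.0436 and 0.0404). The other 2 tested probes were above background on every control array and on no irradiated array, and both were called. They passed the filter through the controls alone, so their calls and adjusted p-values give no test. In controls they were at least 7.23-fold and 4.05-fold higher than in TBI rats (measured means 5.67 and 1.37, and 4.83 and 2.14), and at least 4.14-fold and 2.32-fold higher than in HSC + TBI rats (means 1.96 and 1.54), with adjusted p of 0.000504, 0.00736, 0.00139 and 0.00446. Kif18a (gene ID 362186), a kinesin that aligns chromosomes, read 4.20, 4.63 and 4.35 in the control rats, 3.44, 3.20 and 3.60 in the TBI rats and 2.79, 3.45 and 3.88 in the HSC + TBI rats. All irradiated rats lay below the controls, but neither change was called (adjusted p = 0.0564 and 0.0767). On the log2 scale the change was -0.98 after TBI, and with no HSC + TBI array above background it was at least 1.63-fold higher in controls than in that group (means 4.40 and 3.37). The change after TBI was called without HSC + TBI 1 or HSC + TBI 3 (adjusted p = 0.0265 and 0.0377), and that after HSC + TBI without HSC + TBI 3 (adjusted p = 0.0453).

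All 4 tested genes of the centromere, kinetochore and passenger complex were called lower in both comparisons. Birc5 (gene ID 64041), survivin, a subunit of the passenger complex, was above background on all 9 arrays and read 7.55, 8.48 and 8.13 in the control rats, 6.32, 6.27 and 6.12 in the TBI rats and 6.28, 7.05 and 7.05 in the HSC + TBI rats. The controls did not overlap with the other groups. Its log2 fold change was -1.82 ± 0.27, adjusted p = 0.00726 after TBI and -1.26 ± 0.27, adjusted p = 0.0458 after HSC + TBI, and the second call was lost when any rat but control 1 was left out (adjusted p up to 0.155). Cenpa (gene ID 298850), the histone that marks centromeres, read 5.30, 5.49 and 5.82 in the control rats, 4.22, 3.73 and 3.91 in the TBI rats and 4.31, 4.35 and 4.42 in the HSC + TBI rats. As for Bub1, the HSC + TBI rats lay between the TBI rats and the controls without overlap. Against controls the change was -1.58 ± 0.17, adjusted p = 0.00198 after TBI and -1.17 ± 0.17, adjusted p = 0.00938 after HSC + TBI.

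Nuf2 (gene ID 304951) and Spc25 (gene ID 295661) encode subunits of the NDC80 complex, which ties kinetochores to microtubules. Nuf2 read 5.32, 5.80 and 5.65 in the control rats, 1.93, 1.81 and 2.04 in the TBI rats and 1.51, 4.16 and 1.55 in the HSC + TBI rats. Of the irradiated rats only HSC + TBI 2 was above background, and it stayed below the controls. Against TBI it was at least 6.85-fold higher in controls (means 5.59 and 1.93, adjusted p = 0.0111), and after HSC + TBI the log2 fold change was -3.19 ± 0.62, adjusted p = 0.0312, a call lost on leaving out any 1 of the controls, HSC + TBI 1 or HSC + TBI 3 (adjusted p up to 0.112). Spc25 read 4.32, 5.01 and 4.88 in the control rats, 3.07, 2.88 and 3.04 in the TBI rats and 2.16, 2.48 and 3.39 in the HSC + TBI rats. No irradiated rat reached the controls. In TBI rats it changed by -1.74 ± 0.31, adjusted p = 0.0132, and against HSC + TBI it was at least 2.17-fold higher in controls (means 4.74 and 2.67, adjusted p = 0.0102). Both calls of Spc25 were lost without control 3, at adjusted p of 0.0526 and 0.0532.

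Neither tested gene of chromosome condensation, the condensin subunits Smc2 and Smc4, was called. Smc4 (gene ID 295107) was above background on all 9 arrays, with log2 fold changes of -0.33 (95% confidence interval -0.83 to 0.16) and -0.33 (-0.83 to 0.16). Smc2 (gene ID 362519) read 3.78, 3.77 and 3.49 in the control rats, 4.87, 4.29 and 3.32 in the TBI rats and 2.95, 3.30 and 2.83 in the HSC + TBI rats. It lay near background in the controls, and the TBI rats overlapped them. Top2a, the topoisomerase that untangles sister chromatids, was matched to 2 probes only through an annotation table of the study that lists probes the study had called, so it is given here and not counted. Its probes had log2 fold changes of -2.12 and -3.42 after TBI. No HSC + TBI array was above background for either, and they were at least 3.61-fold and 5.05-fold higher in controls than in that group.

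The 9 genes with a probe that were not tested were dim. Aurkb, Cdca8, Kif11, Kif2c, Pbk and Prc1 were above background on 2 of the 3 control arrays, on at most 1 TBI array and on no HSC + TBI array. Prc1, which bundles central spindle microtubules, read 4.15, 5.02 and 4.68 in the control rats, 1.35, 1.34 and 1.78 in the TBI rats and 1.39, 2.70 and 1.40 in the HSC + TBI rats. The controls were far above the other rats, although control 1 was not itself marked above background. Nek2 was above background on 1 TBI array and Hmmr on none of the 9 arrays. The brighter probe of Cenpf was above background on 1 TBI array alone. Its other probe was so on control 2 alone, and read 3.54, 3.93 and 3.62 in the control rats and between 1.17 and 1.27 in the irradiated rats. Untested second probes of Ccna2, Ccnf, Kif18a and Ttk were above background on at most 2 arrays.

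Over the 37 genes with a probe, the number above background was 28, 33 and 32 on the control arrays, 20, 24 and 29 on the TBI arrays and 16, 17 and 18 on the HSC + TBI arrays. Over all named genes the share above background ran the other way in the TBI group, at 66.5% to 69.0% of genes in controls, 73.1% to 77.5% in TBI rats and 68.2% to 69.2% in HSC + TBI rats. The TBI arrays also marked dimmer signals as above background, down to a log2 signal of 2.51 to 3.13, beside 3.68 to 3.97 on control and 3.56 to 3.66 on HSC + TBI arrays. The difference in detection between the irradiated groups is thus no measure of level, and its part in the results was not tested. All 3 control arrays lay on 1 slide, the TBI arrays on a second, and the HSC + TBI arrays on 2 further slides, so slide and group cannot be told apart.

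**Figure D3:**
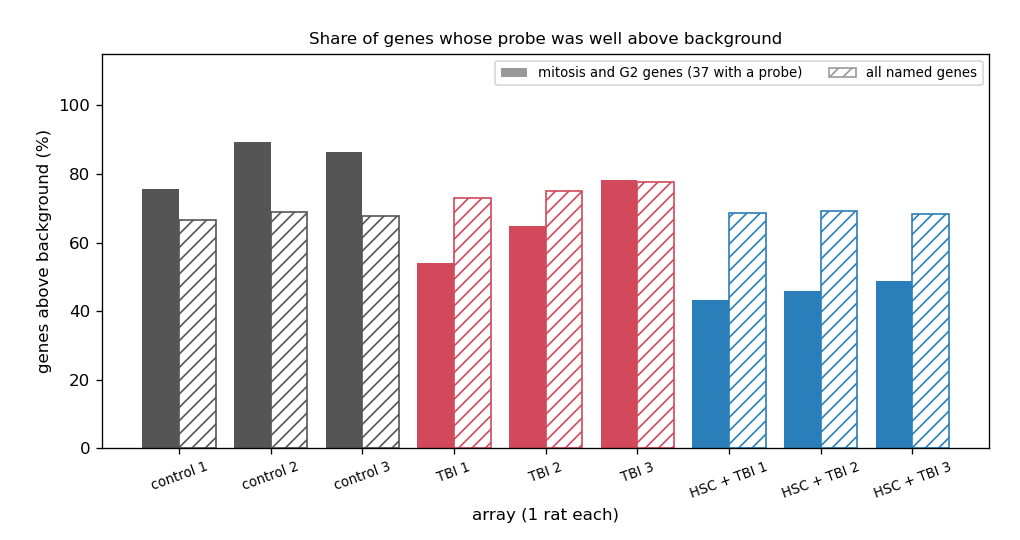
Percent of genes well above background (vertical axis) on each of the 9 arrays, with filled bars for the 37 mitosis and G2 genes with a probe and hatched bars for all named genes. The filled bars run from 75.7% to 89.2% in controls, 54.1% to 78.4% in TBI rats and 43.2% to 48.6% in HSC + TBI rats. That of TBI 3 is higher than that of control 1. The hatched bars stay between 66.5% and 77.5%.

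Among the controls, rat 1 had the lowest signal for 24 of the 28 tested genes (85.7%), beside 35.4% of all named genes. In the HSC + TBI group, rat 3 had the highest signal for 18 of the 28 (64.3%), beside 39.8%. Without control 1, 18 genes were called lower after TBI and 17 after HSC + TBI, and without HSC + TBI 3 the numbers were 20 and 15. The count after HSC + TBI was most affected by control 3, without which it was 12.

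Between the irradiated groups, limma called 0 of the 28 genes higher and 0 lower in HSC + TBI than in TBI rats, where 0.271% of named genes were called higher and 0.521% lower. Unadjusted p-values under 0.05 were found for 3 genes, Smc2, Bub1 and Cenpa, beside 1444 of the 9599 tested named genes. Of the fitted differences, 15 were above 0 and 13 below, and for 9 genes the TBI or the HSC + TBI group had no array above background. Among the other genes they ran from -0.75 (Ccnf, -1.93 to 0.43) to 0.56 (Birc5, -0.07 to 1.18) on the log2 scale. The smallest adjusted p was 0.168, for Smc2, where the fitted log2 difference was -1.13 (95% confidence interval -1.91 to -0.35). No HSC + TBI array was above background for it, and the bound was at least 1.45-fold higher in TBI rats. Smc2 and Ccnf passed the filter through the TBI group alone, as did 551 of the 9599 tested named genes. The filter favours a high TBI value in such genes, so these 2 differences give no test. A second, untested probe of Smc2 ran the other way: it was above background on HSC + TBI 1 alone, where it read 5.40, and its means were 3.54 in HSC + TBI and 2.61 in TBI rats. Without TBI 3, the lowest TBI rat for this gene, Smc2 was called, at -1.55 against TBI (adjusted p = 0.0197) and at 0.90 for TBI against controls (adjusted p = 0.0412).

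Bub1 and Cenpa were higher in every HSC + TBI rat than in any TBI rat, by 0.50 (0.13 to 0.87, adjusted p = 0.186) and 0.41 (0.02 to 0.79, adjusted p = 0.288). In all, 2 of the 28 genes were higher without overlap and 2, Smc2 and Kif23, lower, where 10.3% and 11% of named genes did not overlap in these directions. The absence of calls does not show equal levels. The 95% confidence intervals of 13 genes lay within 1 log2 unit of 0 on both sides, and those of the other 15 allowed a larger difference in at least 1 direction.

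**Figure D4:**
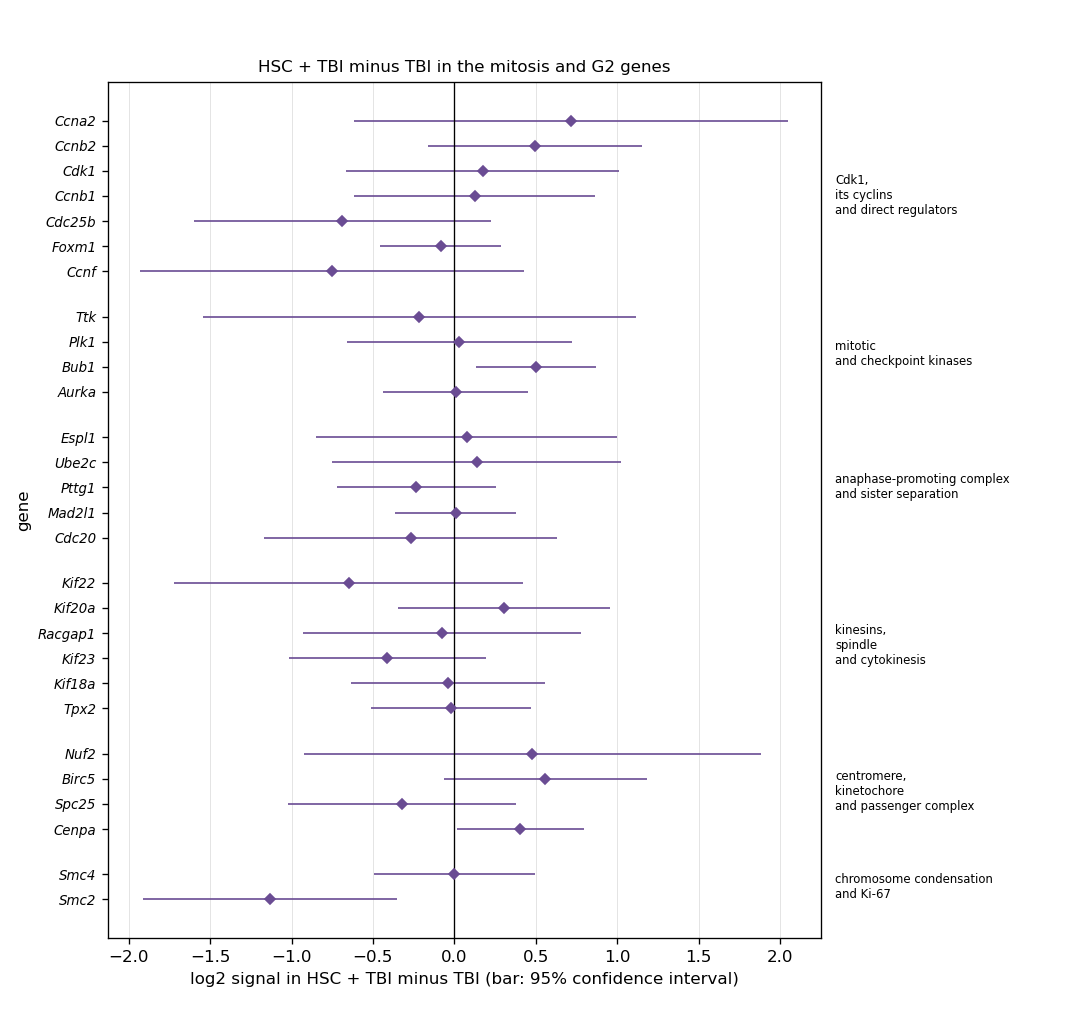
Difference in log2 signal between HSC + TBI and TBI rats (horizontal axis) for the 28 tested genes by role, with 95% confidence intervals as bars. The intervals of 25 genes include 0, and those of Bub1, Cenpa and Smc2 do not.

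Other genes of the pathway were read from lists that share no gene with the 48. Of 20 tested other mitosis genes, 7 were called lower and 0 higher after TBI, and 7 lower and 1 higher after HSC + TBI. The median log2 fold change was -0.22 after TBI and -0.51 after HSC + TBI. Cenpt, a kinetochore scaffold, changed by -3.55 on the log2 scale in TBI rats (adjusted p = 0.00870) and was at least 4.40-fold higher in controls than after HSC + TBI. Ect2, which activates RhoA at the division plane, had -3.24 and -3.27 (adjusted p = 0.0194 and 0.0319). Spag5, a spindle protein, had -2.71 after TBI (adjusted p = 0.00229) and was at least 5.11-fold higher in controls than after HSC + TBI. Gtse1, which is made in G2 and binds p53, was the gene called higher, at 1.51 after HSC + TBI (adjusted p = 0.0374), with 0.96 after TBI (adjusted p = 0.0956).

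Subunits of the anaphase-promoting complex itself and of cohesin were not called. Of 10 tested subunits and regulators of the anaphase-promoting complex and 8 tested genes of cohesin and its loaders, limma called 0 in either comparison with controls. At an unadjusted p under 0.05 there were 2 and 1 of them after TBI and 0 and 1 after HSC + TBI, where 2504 and 2101 of 9599 named genes were. Their log2 fold changes lay between -0.63 and 0.47.

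The genes of a list of G2 brakes and p53-induced arrest genes moved both ways. The list also holds the phosphatase Cdc25a, which is no brake, so its counts are not of brakes alone. Of 16 tested, 5 were called higher and 3 lower after TBI, and 4 higher and 2 lower after HSC + TBI. Cdkn1a, which encodes p21 and marks the exposure, read 7.98, 8.22 and 8.81 in the control rats, 13.44, 13.64 and 14.04 in the TBI rats and 13.56, 13.09 and 13.00 in the HSC + TBI rats. The irradiated rats stood far above the controls. On the log2 scale it changed by 5.37 ± 0.25, adjusted p = 3.47e-05 after TBI and 4.88 ± 0.25, adjusted p = 8.91e-05 after HSC + TBI. Btg2, an antiproliferative p53 target, rose by 3.13 and 2.44 (adjusted p = 0.00326 and 0.0130), and Ccng1, cyclin G1, also a p53 target, by 2.48 and 2.55 (adjusted p = 0.000317 and 0.000296). Among the genes called lower was Pkmyt1, a kinase that inhibits Cdk1, with -1.54 and -1.55 (adjusted p = 0.0130 and 0.0203), named after its values had been seen. Between HSC + TBI and TBI, 0 genes of these 4 lists were called.

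**Figure D5:**
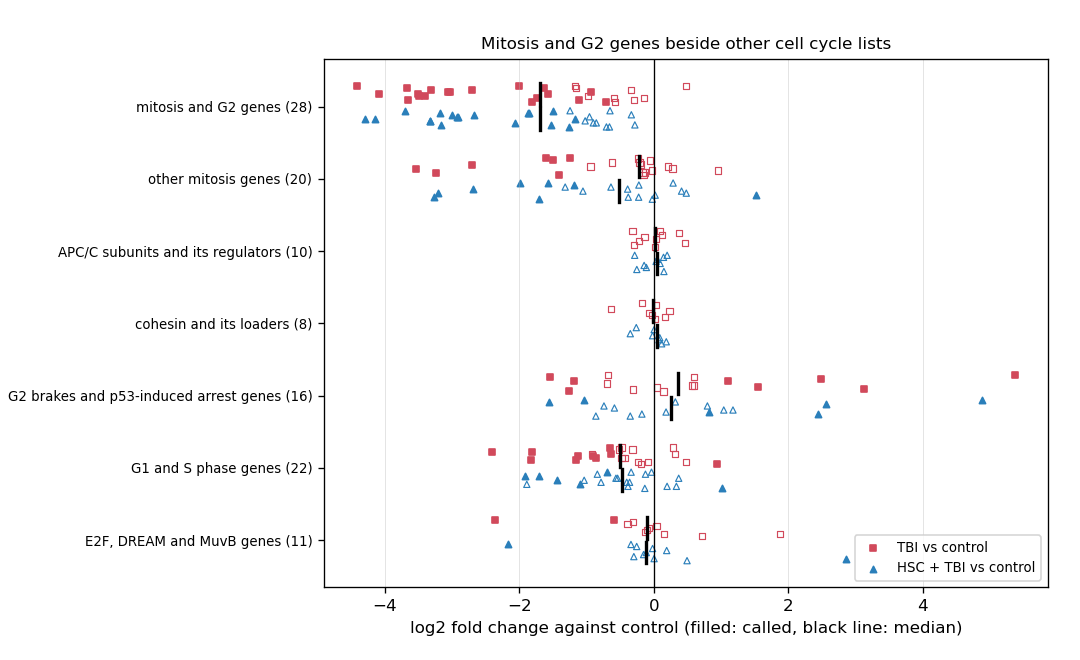
Log2 fold change against controls (horizontal axis) of each tested gene of 7 lists, squares for TBI and triangles for HSC + TBI, filled where called, with black lines at list medians. The mitosis and G2 genes have a median of -1.69 in both comparisons, cohesin and its loaders -0.01 and 0.04, and Cdkn1a is the point farthest to the right, at 5.37 after TBI.

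Markers of cell types were read beside these genes. All 8 hepatocyte markers were above background on every array, with a summed level (log2 of summed signal) of 20.02 to 20.09 in controls, 19.86 to 20.11 in TBI and 20.01 to 20.10 in HSC + TBI rats. Of these 8, 1 was called higher after TBI and 0 after HSC + TBI. Their log2 fold changes ran from -0.53 to 1.53 and from -0.27 to 1.41. T cell markers, of which 7 of 8 had a probe, summed to 9.15 to 9.61, 7.97 to 8.83 and 8.17 to 8.62, and 2 of the 5 tested were called lower after TBI and 1 after HSC + TBI. Erythroid precursor markers, with 6 of 8 on the array, summed to 11.01 to 12.3, 10.4 to 11.4 and 10.1 to 10.9, with 0 of 5 tested called. Those 5 went both ways, with log2 fold changes from -1.30 to 1.53 after TBI and from -1.96 to 0.63 after HSC + TBI. T cell sums of all 6 irradiated rats lay below the controls. Erythroid, B cell, Kupffer cell and neutrophil sums of the HSC + TBI rats lay below every control, while those of the TBI rats overlapped the controls. Of the 7 T cell markers, 2 were above background on no control array and 3 on no array in each irradiated group. Between HSC + TBI and TBI, 1 T cell marker was called higher. Of 3 B cell markers with a probe, 2 were tested and 1 was called lower in each comparison with controls, with sums of 7.36 to 7.66, 7.29 to 7.98 and 6.94 to 7.05. After TBI the 2 tested markers went opposite ways, with log2 fold changes of -2.91 and 0.55, and after HSC + TBI both were below 0. Sums of Kupffer cell and macrophage markers were 16.4 to 17.1, 16.5 to 17.4 and 16.0 to 16.1, with 0 of 8 markers called. The 8 Kupffer cell markers were all lower in HSC + TBI than in TBI rats in the fit, by a median of -1.03, with 7 at an unadjusted p under 0.05, 6 without overlap and 0 called. Over all tested named genes, 1444 of 9599 had such a p and 11% were lower without overlap. Sums of neutrophil and myeloid precursor markers were 8.55 to 9.27, 8.59 to 9.62 and 7.89 to 8.27. Endothelial cell markers summed to 13.6 to 13.9, 14.02 to 14.3 and 13.9 to 14.1, and cholangiocyte markers to 8.59 to 9.01, 8.41 to 9.32 and 8.73 to 8.89. The part of these cell types in the results was not tested.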

How the data were processed

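Deposited scanner output of 9 arrays was used. Per the file headers, the authors' scans were read with Agilent Feature Extraction 10.7.3.1, whose processed signal is a linear intensity after background subtraction. The authors quantile-normalized these signals in GeneSpring, and the deposited value table holds the resulting log2 values; its scale and centring are not stated. Here the processed signals were set to at least 1, log2-transformed and quantile-normalized, control spots and outlier spots were left out and spots of a probe were averaged. Median differences from the authors' values were 0.029 to 0.032 per array. How RNA extracts relate to rats beyond 1 array per rat is not given, and 3 arrays per group limit the precision.

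A probe counted as above background when more than 0.5 of its spots were marked so by the scanner software, and was tested when this held on all 3 arrays of a group. R 4.3.3 and limma 3.58.1 (lmFit, eBayes) fitted the 3 group means on all 9 arrays, with p-values adjusted by Benjamini-Hochberg over all tested probes. The script was tested on simulated data. Probes were named through unversioned RefSeq accessions, which gave 16968 of 41012 probes a gene, and a gene with several probes was read by its brightest tested probe. The sum of a marker list is the log2 of its summed linear signals. A dim group gave a lower bound: the mean of the bright group over the mean, in the dim group, of the higher of the probe's own signal and the lowest signal marked above background on that array.

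The members, the gene lists and the marker lists were chosen with earlier results of these data known. Named were all members by role, including the 3 uncalled tested members with the largest change in each comparison, at most 3 called genes with the largest change from each other list, and Cdkn1a. Alternatives were the authors' values, a shift to the 75th percentile, normexp on median signals (offset 50), other filters, outlier spots kept, only the groups compared, the methods' t-test, no minimum fold, a replicate block, the slide as a random block, the mean of a gene's probes, and each rat left out.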

Additional observations from a re-analysis of the deposited data

How the results depend on the processing

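With each rat left out in turn, the number of mitosis and G2 genes called lower was 15 to 20 after TBI and 12 to 19 after HSC + TBI, and 0 to 1 for HSC + TBI against TBI. The number called higher was 0 to 1, 0 to 0 and 0 to 0. The lowest counts, 15 and 12, came without control 3. The single gene in the other counts was Smc2, without TBI 3. Smc2 passed the filter through the TBI group alone. When probes had to be above background on all 9 arrays, 10 genes were called lower after TBI and 10 after HSC + TBI, from fewer genes. The methods' t-test with adjusted p called 0 and 0 of the genes lower, where it called only 3 and 2 of all 25346 tested probes lower. These counts of 0 thus do not set the genes apart. Without adjustment it called 20 and 21 of the genes lower, beside 1096 and 1022 of all tested probes. The slide as a random block, at a consensus correlation of -0.33, called 23 and 24 genes lower than in controls. Over all probes it called 2021 and 1462 lower, beside 940 and 518. It called 1 gene lower in HSC + TBI than in TBI, Smc2. Over all probes that setting raised the calls in this comparison from 59 higher and 143 lower to 718 and 1540. Each slide held rats of 1 group only, so this setting cannot separate slide from group and its added calls give no test. Normexp called 13 and 13 genes lower, and the median log2 fold change over the genes was -0.51 and -0.53 beside -1.69. The labels share replicate numbers. Deviations of same-numbered samples had r from -0.144 to 0.191 over 9 pairs, beside -0.121 to 0.144 over 18 differently numbered pairs. Same-numbered control and TBI rats had r of 0.191, 0.117 and 0.0977, and differently numbered ones -0.121 to 0.0171. Same-numbered TBI and HSC + TBI rats had r of -0.144, -0.0160 and -0.0306. These weak values cannot settle whether the numbers pair the rats. With the replicate block, 17, 17 and 0 genes were called lower in the 3 comparisons.

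Differences between HSC + TBI and TBI near 0 changed sign, with the cause not tested. With the 75th percentile shift Ccnb1 was -0.071, Espl1 -0.14, Mad2l1 -0.077, Plk1 -0.056 and Ube2c -0.061. With normexp Espl1 was -0.00448, Kif18a 0.027, Mad2l1 -0.00531, Plk1 -0.00533, Racgap1 0.019 and Tpx2 0.035. In the methods' t-test Kif18a was 0.018 and Racgap1 0.00720, and with the slide block Tpx2 was 0.018. With 1 rat left out the differences ran from -0.23 to 0.46 for Ccnb1, -0.21 to 0.41 for Cdk1, -0.27 to 0.33 for Espl1, -0.29 to 0.25 for Kif18a, -0.10 to 0.15 for Mad2l1 and -0.40 to 0.93 for Nuf2. They ran from -0.12 to 0.21 for Plk1, -0.49 to 0.14 for Racgap1, -0.15 to 0.14 for Tpx2, -0.59 to 0.49 for Ttk and -0.12 to 0.34 for Ube2c. Ccnf after TBI was 0.011 with normexp and -0.44 to 0.026 with 1 rat left out.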

Other observations

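Most of the G1 and S phase genes that were called were lower in irradiated rats. Of 22 tested, 9 were called lower and 1 higher after TBI, and 5 lower and 1 higher after HSC + TBI, with median log2 fold changes of -0.50 and -0.47. Mcm6, a subunit of the replicative helicase, changed by -2.41 after TBI (adjusted p = 0.00124 by limma), and Cdc45, which activates that helicase, by -1.82 (adjusted p = 0.000374). Cdt1, which loads the helicase in G1, changed by -1.82 (adjusted p = 0.0383). The gene called higher was Tyms, thymidylate synthase, at 0.94 and 1.016 (adjusted p = 0.00395 and 0.00370), chosen after its values were seen. Of 11 tested E2F, DREAM and MuvB genes, 2 were called lower and 0 higher after TBI, and 1 lower and 1 higher after HSC + TBI. E2f1, a transcription factor of G1 and S phase genes, changed by -2.36 and -2.17 (adjusted p = 0.000374 and 0.000726). Mybl2, which acts with MuvB on G2 genes, was the gene called higher, at 2.86 after HSC + TBI (adjusted p = 0.0354), with 1.88 after TBI (adjusted p = 0.0829). Between HSC + TBI and TBI limma called 0 genes of both lists, with 2 and 0 at an unadjusted p under 0.05, beside 1444 of 9599 named genes.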
